A study of Mus musculus with 2 samples.

Results

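CTCF binding sites of mouse embryonic stem cells (ESCs) that stand alone were examined: 717 of the 33226 CTCF peak summits on chromosomes 1 to 19, each with its nearest other summit more than 200 kb away on both sides. A summit is the base of a peak at which the most tags, the aligned ends of sequenced fragments, pile up. The members were selected on the distance between summits alone. That distance depends on the peak list, since a weaker site below the lower limit of the list is not counted as a neighbour. The other 32509 summits serve as the comparison, and 400 kb around each summit, 200 kb on either side, are called its surroundings. 5 of the 717 were the first or last summit of their chromosome and had a neighbour on 1 side only, and 12 had more than 10% unknown bases in the surroundings.

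The R1/E ESC line had a stably integrated bacterial artificial chromosome (BAC) from which CTCF was made with the GFP-containing LAP tag, and resistant clones were sorted for GFP. Both libraries came from this line, grown with LIF, fixed in 1% formaldehyde and sheared to fragments of about 500 bp. In one, chromatin was precipitated with goat-anti-eGFP, and in the other with a goat IgG isotype control, whose label also reads input DNA. The tagged protein is added to the CTCF that the cells make themselves, so the values describe GFP-tagged CTCF in 1 line, and each antibody has 1 library without a replicate. The CTCF library held 8391191 tags and the IgG library 7988889 tags, of which 8158996 and 7733347 lay on chromosomes 1 to 19. Every interval given here is at 95%. Intervals on ratios and on tags relative to the genome rate cover the counting error of tags. Those on shares and medians treat the sites as independent draws, although the surroundings of nearby members overlap. None covers the variation between cultures. Sites of 1 library are not replicates, so isolated and other summits were compared by values and intervals, without a test.

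CTCF is a DNA-binding protein with a row of zinc fingers that reads a long, directional sequence motif. It is known as an insulator protein, and it stops the cohesin complex as cohesin extrudes loops of chromatin, so that loops are often anchored at CTCF motifs that point toward each other. In mammals CTCF sites are dense in gene-rich chromatin and sparse in the long, AT-rich stretches between genes.

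The sequences below show what the isolated sites hold. They are the motifs at the 5 tallest members, at the 5 members farthest from any other summit and at 2 of the lowest members, each with 10 bases on either side, read from mm9 on the strand of the motif, with the motif in capitals. Each is named for the gene that holds the site or, failing that, for the protein-coding gene with the nearest start. The first line is the consensus of the matrix with which the motifs were found.
consensus: TGGCCACCAGGGGGCACTA
Samd9l (chr6:3133988-3134026, plus strand): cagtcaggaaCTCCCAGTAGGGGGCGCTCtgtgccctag
Immp2l (chr12:42213795-42213833, minus strand): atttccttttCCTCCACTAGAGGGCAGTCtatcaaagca
Ddx1 (chr12:13221884-13221922, minus strand): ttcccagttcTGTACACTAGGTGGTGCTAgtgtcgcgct
Kcnk9 (chr15:72347647-72347685, minus strand): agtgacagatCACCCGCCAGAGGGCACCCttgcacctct
Gm13247 (chr4:145714333-145714371, minus strand): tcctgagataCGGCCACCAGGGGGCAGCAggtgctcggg
Epha7 (chr4:29452365-29452403, plus strand): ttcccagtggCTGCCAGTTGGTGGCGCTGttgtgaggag
Pabpc4l (chr3:47304166-47304204, plus strand): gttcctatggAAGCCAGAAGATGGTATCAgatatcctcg
Gm20410 (chr17:38699667-38699705, minus strand): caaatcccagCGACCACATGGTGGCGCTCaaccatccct
Lingo2 (chr4:37507411-37507449, plus strand): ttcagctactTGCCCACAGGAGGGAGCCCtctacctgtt
Efna5 (chr17:61460478-61460516, minus strand): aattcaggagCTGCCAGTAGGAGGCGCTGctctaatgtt
Xylt1 (chr7:124139461-124139499, plus strand): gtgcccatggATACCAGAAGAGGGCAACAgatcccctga
Nlrp1b (chr11:71137135-71137173, minus strand): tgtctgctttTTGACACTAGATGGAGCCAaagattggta

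The tallest isolated summit, at position 3133885 of chromosome 6, had a height of 53 tags, with 54 CTCF tags and 7 IgG tags within 150 bp. The next protein-coding gene start is that of Samd9l, an interferon-inducible gene, 215686 bp away. It is the first summit of the chromosome, 16.5% of its surroundings are unknown bases, and no other isolated summit had as many IgG tags. The second tallest, of height 36, lies in Immp2l, a gene of 1305899 bp that encodes a peptidase subunit of the inner mitochondrial membrane. The protein-coding gene start nearest to this summit is that of Lrrn3, 1538 bp away. The summit had 41 CTCF tags and no IgG tag, with 30.0% unknown bases around it. A summit of height 33 near Ddx1, which encodes an RNA helicase, had 39 CTCF and 2 IgG tags, and the summit in Kcnk9, a background potassium channel gene, had a height of 29 with 38 CTCF tags and no IgG tag. Neither has unknown bases within 200 kb. The summit near Gm13247 had a height of 28, with 30 CTCF and 2 IgG tags, and the highest peak score of all members at 586.71, and 18.9% of its surroundings are unknown bases. The score is -10 times the log10 of the p-value that MACS gave the peak against the IgG library. The remaining 5 of the 10 tallest, near Rnf152, a ubiquitin ligase gene, Gm17582 and Cacna2d1, an accessory calcium channel subunit gene, and in Glb1l2, a gene related to beta-galactosidase, and Zkscan6, a zinc finger gene, had heights of 24 to 26, 24 to 30 CTCF tags and 0 to 3 IgG tags. Each of the 10 held a motif within 150 bp. The tenth place was a tie, since 3 members had a height of 24. Those in Cntn4 and Bard1, which are not among the 10, each had 28 CTCF tags and 1 IgG tag. The one in Cntn4 held a motif and the one in Bard1 did not.

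The most isolated summits were not tall. The one nearest to Epha7, an ephrin receptor gene whose start is 712186 bp away, had its next summit 1894122 bp away, with a height of 9, 9 CTCF tags and 1 IgG tag. The summit nearest to Pabpc4l was 1346378 bp from the next one and had a height of 11, with 13 CTCF tags and 1 IgG tag. The summits nearest to Gm20410 and Efna5, an ephrin ligand gene, stood 1311942 and 1199186 bp from others, with heights of 14 and 12, and each had 14 CTCF tags and 1 IgG tag. The summit nearest to Lingo2, which encodes a neuronal membrane protein with leucine-rich repeats, stood 1271119 bp from the next one. It had a height of 9 with 10 CTCF and 3 IgG tags, a difference that did not pass the test, with an adjusted p of 0.0956 (exact binomial test, two-sided, Benjamini-Hochberg adjustment over all 33226 summits). All 5 held a motif, and the GC content of their surroundings lay between 36.6% and 37.0%.

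The 5 lowest members, near Xylt1, Nlrp1b, Gm10110 and Tpm3-rs7 and in Adcy2, had a height of 6, the lowest in the deposited list. They had 6 to 10 CTCF tags and 0 or 1 IgG tag, and the difference at the summit near Tpm3-rs7, with 6 and 1, did not pass the test (adjusted p of 0.127, exact binomial test). Xylt1 encodes the enzyme that starts the sugar chains of proteoglycans, Nlrp1b an inflammasome sensor and Adcy2 an adenylyl cyclase. The summits near Xylt1 and Nlrp1b held a motif, whereas the other 3 held none at the p-value used. Just inside the limit of 200 kb were summits near Rbfox1, a splicing regulator gene, Rtl1, a gene derived from a retrotransposon, and Lrriq3, at 200171, 200328 and 200484 bp from their nearest neighbours, with heights of 10, 8 and 10. Just outside were those near A230072I06Rik and Rpl28-ps4 and in Dpp6, which encodes an accessory subunit of potassium channels, at 199770, 199552 and 199235 bp, with heights of 7, 10 and 22.

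Isolated summits were slightly lower than the others over most of the range of heights. Their median height was 12 tags (interval 11 to 12, quartiles 9 and 15, range 6 to 53), against 13 (13 to 13, quartiles 10 and 17, range 6 to 89) at other summits. The difference lay mainly in the upper part. Heights of 20 to 29 tags were seen at 45 isolated summits, 6.28%, against 13.1% of other summits, and heights of 30 or more at 3, 0.418%, against 1.98%. Heights of 6 to 8 were seen at 14.6% against 12.7%. The median score was 97.4 (93.2 to 102) against 119 (117 to 120), and 62 members, 8.65% (6.80 to 10.9), had a score of 200 or more against 20.9% (20.5 to 21.4). The lower height was not particular to the members. Summits with a neighbour at 100 to 200 kb also had a median height of 12 (11 to 12). Their median score was 105 (101 to 109), and 13.5% of them had a score of 200 or more. The median distance to the nearest summit was 291532 bp among members and 10607 bp among the rest.

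**Figure D1:**
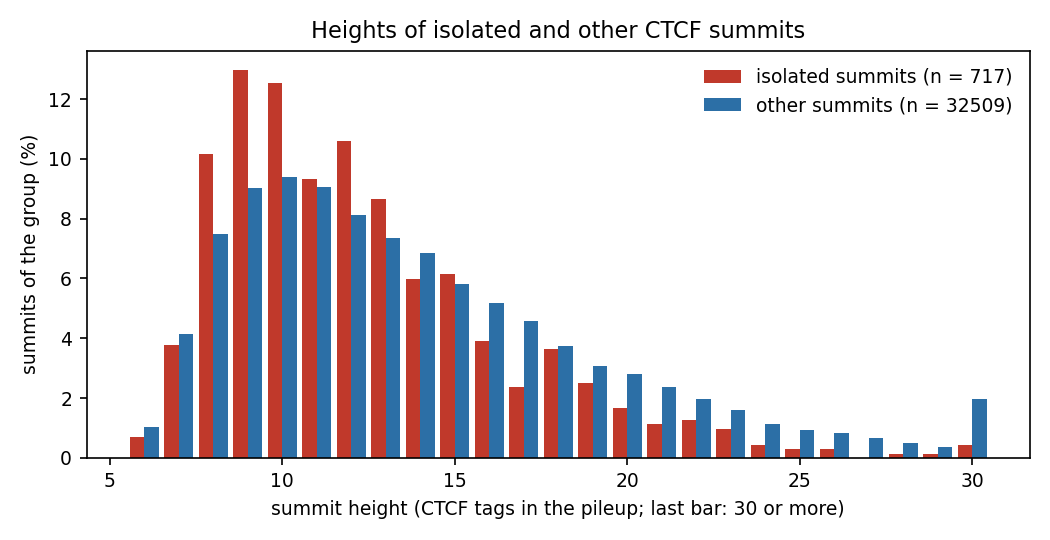
Summit height in CTCF tags (x axis; the last bars hold heights of 30 or more) against the percentage of summits of each group (y axis), for the 717 isolated summits (red bars) and the 32509 other summits (blue bars). The medians, 12 and 13, lie close together, while bars from 20 upward are lower in the isolated group.

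Within 150 bp of the summit, the members had a median of 13 CTCF tags (13 to 14, range 6 to 54) and 1 IgG tag (range 0 to 7). Other summits had a median of 15 CTCF tags (14 to 15) and 1 IgG tag. In sum, 10410 CTCF tags and 778 IgG tags fell at the isolated summits, 14.5 and 1.09 per summit. Scaled by the library totals, CTCF tags were 12.7 times the IgG tags (exact interval 11.8 to 13.7), against 14.3 (14.2 to 14.5) at other summits. The intervals do not overlap. The lower ratio came with fewer CTCF tags per summit, 14.5 against 16.2, while IgG tags were 1.09 and 1.08 per summit. IgG tags at isolated summits stood at 1.12 times (1.04 to 1.20) the genome-wide rate of that library and at 1.11 times (1.10 to 1.12) at other summits.

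No IgG tag was found within 150 bp at 252 members, 35.1%, 1 at 259, 2 at 124 and 3 at 65. The 17 with 4 or more had 13 to 54 CTCF tags. At 682 of the 717 members, 95.1% (93.3 to 96.5), CTCF tags exceeded IgG tags at an adjusted p of at most 0.05 (exact binomial test, two-sided, over all summits), where 94.9% of all 33226 summits did. The share is thus near the background and restates the peak calls, which were made from the same libraries. The 35 members that were not called had 6 to 13 CTCF tags and 1 to 4 IgG tags, and 17 of them held a motif. At no member was the scaled IgG count the higher one.

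**Figure D2:**
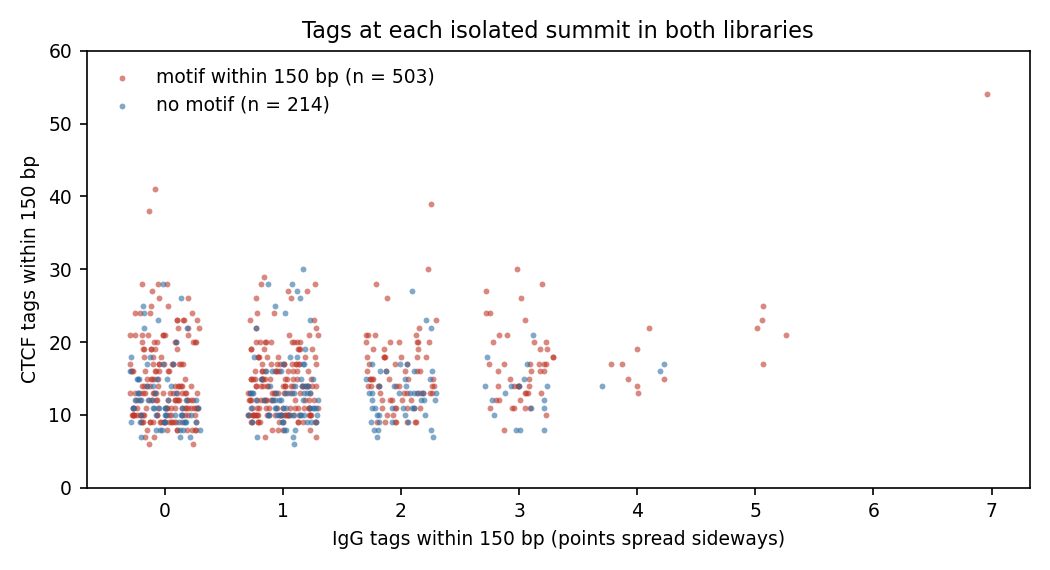
IgG tags (x axis, whole numbers with points spread sideways) against CTCF tags (y axis) within 150 bp of each of the 717 isolated summits, 503 with a CTCF motif (red) and 214 without (blue). Points at 0 and 1 IgG tags span 6 to 41 CTCF tags, and the summit with 54 CTCF tags is also the one with 7 IgG tags.

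The surroundings of isolated summits were poor in GC. Their median GC content was 38.8% (38.6 to 39.0, quartiles 37.6 and 40.6), against 44.9% (44.8 to 44.9, quartiles 42.6 and 47.4) around other summits and 41.6% over the 5884 tiles of 400 kb into which the chromosomes were cut. Values ranged from 35.2% to 47.2% around members. Of the members, 491, or 68.5%, had surroundings below 40% GC, against 7.40% of other summits. Low GC content was not particular to the members. Around summits with a neighbour at 100 to 200 kb the median was 40.8%, with 38.3% of them below 40% GC. Tiles with 1 summit had a median of 38.8%, and tiles without a summit 37.7%. The 300 bp at the summit itself had a median GC content of 41.7% against 46.3%, with 2 CpG dinucleotides against 3. The surroundings are not independent of each other, since windows of members less than 400 kb apart overlap.

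They were also poor in genes. The median number of protein-coding gene starts was 0 (quartiles 0 and 1) around isolated summits, 5 (3 and 9) around others and 2 in the tiles. No such start lay in the surroundings of 389 members, 54.3% (50.6 to 57.9), against 5.85% of other summits, and 290 members, 40.4%, had not even a part of a protein-coding gene within 200 kb. With all annotated genes counted, the medians were 1 and 8. The nearest protein-coding gene start was 239795 bp away in the median (202055 to 271928), against 21922 bp (21515 to 22398). Gene-poor surroundings were not universal, since up to 24 protein-coding gene starts lay around a member. Gene-poor tiles without any summit exist as well: 976 tiles, 16.6%, held no summit, and 635 of these, 65.1%, no protein-coding gene start. Of the tiles with 1 summit, 54.6% held no such start, with a median of 0. Among summits with a neighbour at 100 to 200 kb, 28.3% had none in their surroundings, with a median of 1. For these summits the nearest protein-coding gene start was 100218 bp away in the median.

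**Figure D3:**
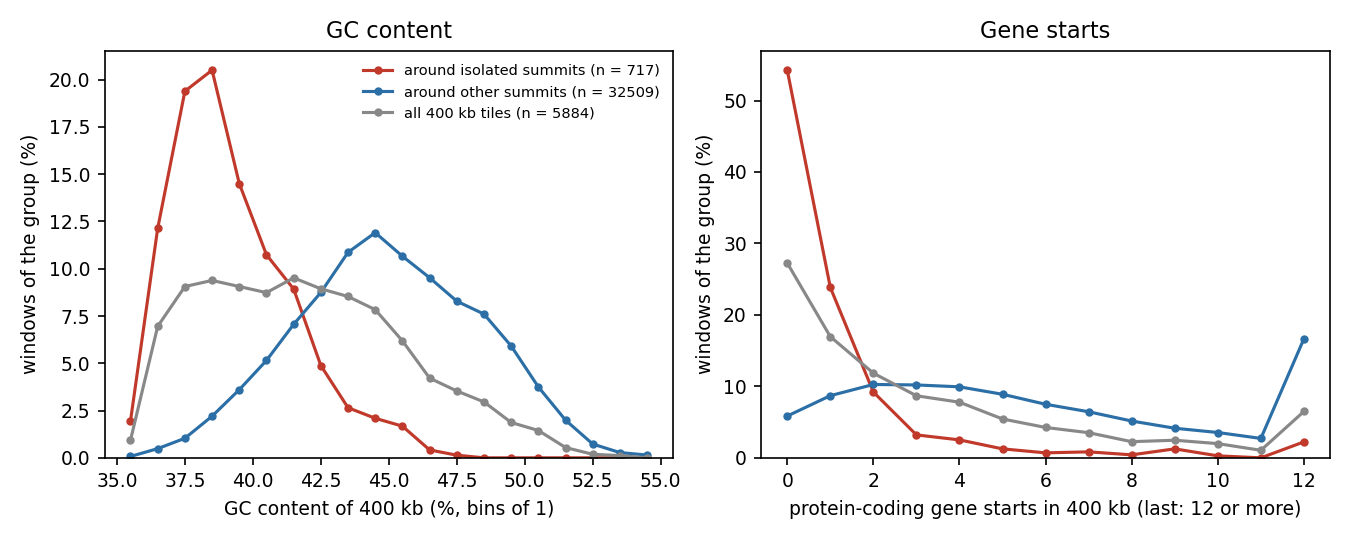
Left, GC content of 400 kb windows in bins of 1 percentage point. Right, number of protein-coding gene starts in the same windows, with 12 or more in the last point. Lines give the percentage of windows of each group, around isolated summits (red, n = 717), around other summits (blue, n = 32509) and over all tiles (grey, n = 5884). The red line peaks below 40% GC and at 0 gene starts.

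Isolated summits lay mostly between genes. By position, 515 members, 71.8% (68.4 to 74.997), were intergenic, 185, 25.8% (22.7 to 29.1), in introns, 10, 1.39%, in exons and 7, 0.976%, in promoters, the 1 kb before a gene start. At other summits these shares were 44.7%, 45.5%, 6.09% and 3.75%. A place between genes was not particular to the members: 50.1% of summits with a neighbour at 50 to 100 kb and 55.8% at 100 to 200 kb were intergenic. Members inside protein-coding genes, 177 in 161 genes, were in long ones, with a median host gene length of 439821 bp (366775 to 538087) against 73302 bp (71043 to 76131) for other summits in genes. The share of members in genes longer than 500 kb was 11.02%, against 11.04% for summits with a neighbour at 100 to 200 kb and 2.33% for those with a neighbour within 5 kb.

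12 genes held 2 or more isolated summits, and all of these are named here for that count, a choice made after their values were seen. Magi2, which encodes a scaffold protein of synapses, held 4 of heights 7 to 17 over 1477753 bp. Cntnap5a, a contactin-associated adhesion gene, and Dpyd, which encodes the first enzyme of pyrimidine breakdown, held 3 each, with heights of 9 to 19 and 9 to 12. The 9 with 2 members each were Macrod2, Dlg2, Lrrc4c, Ctnna2, Cntn4, Ntm, Cntnap5c, Esrrg and Kcnn2. Of these Dlg2 encodes a scaffold of the postsynaptic density, Lrrc4c, Cntn4, Cntnap5c and Ntm encode neuronal adhesion proteins, Ctnna2 a neuronal catenin, Kcnn2 a potassium channel and Esrrg a nuclear receptor. The tallest sites among them were one of height 24 in Cntn4 and one of height 23 in Lrrc4c.

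Gene families near the members were counted by the symbols of gene starts in the surroundings. Vomeronasal receptor genes were near 17 members, 2.37% (1.49 to 3.76), and near 0.609% (0.530 to 0.700) of other summits. Neuronal adhesion genes were near 11 members, 1.53% (0.859 to 2.73), against 0.572% (0.496 to 0.660). Olfactory receptor genes, which like the vomeronasal ones lie in large clusters, were near 16 members, 2.23% (1.38 to 3.59), and near 1.88% (1.74 to 2.04) of the others, a difference within the interval. Gene starts of any kind were fewer around the members, with a mean of 1.32 protein-coding gene starts against 6.63 around other summits, and the shares of families are to be read beside these means. Families with a lower share than at other summits were zinc finger genes, near 9 members, 1.26%, against 6.30%, developmental transcription factors, near 5, 0.697%, against 3.26%, ribosomal protein genes, near 5, 0.697%, against 5.01%, and potassium channels, near 7, 0.976%, against 2.49%. The developmental factors were Foxp2, Pou4f1, Sox11, Sox4 and Tbx18, and all ribosomal symbols near members were of the form that marks pseudogenes. Cadherins were near 4 members, glutamate and GABA receptor subunits near 2, genes of keratins or keratin-associated proteins near 1 and serpins near 1. Each of these shares had an interval that holds the share of other summits, 0.797%, 0.707%, 0.523% and 0.424%. The keratin symbols near that 1 member were all of keratin-associated proteins. Members of 1 cluster of genes share these gene starts.

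Chromosomes differed in how many isolated summits they carried. Chromosome 3 had the most, 68, which is 4.28% of its 1588 summits and 43.5 per 100 Mb, followed by chromosome 12 with 50, 3.85% and 42.6 per 100 Mb. Chromosome 11, the chromosome with the most summits per Mb at 23.1, had 21, 0.766% of its 2741 summits and 17.7 per 100 Mb. Chromosome 3, with 10.2 summits per Mb, had the fewest. In the order of summits along the chromosomes, 385 of the 717 members stood next to another member, in 153 stretches of 2 to 8, and 332 stood singly. The stretch of 8 ran over 6.69 Mb of chromosome 5, from 56599392 to 63286796, a region with the starts of 4 protein-coding genes, among them Pcdh7, a protocadherin, and Arap2. Its heights were 7 to 15, 7 of the 8 held a motif and 6 of the 8 were called. Stretches of 6 lay on chromosome 3 from 147667194 to 150048110, around Lphn2, and from 118131564 to 120450893, around Dpyd and Ptbp2, with heights of 7 to 15 and 9 to 15.

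A CTCF motif, a match to the matrix at a p-value of at most 1e-05 within 150 bp, was found at 503 of the 717 members, 70.2% (66.7 to 73.4), and at 23928 of the other summits, 73.6% (73.1 to 74.1). At positions 2000 bp to either side of the summits, the shares were 1.81% (1.24 to 2.64) and 6.02% (5.84 to 6.20). Isolated summits thus held a motif nearly as often as others, with a lower share at these control positions. Part of that difference follows from the rule, since control positions of other summits can fall in a neighbouring peak. The control share was 9.17% at summits with a neighbour within 5 kb, 5.24% at 5 to 20 kb and 2.12% at 100 to 200 kb. Motifs lay on the plus strand at 245 members and on the minus strand at 258. The summit lay 16 bp (10 to 21) toward the 5′ side of the motif centre in the median, and 13 bp (12 to 15) at other summits. Members with a motif were taller, with a median height of 12 (12 to 13) against 10 (10 to 11) without, as were other summits at 14 and 11. By height, the share with a motif went from 54.3% of the 105 members of height 6 to 8 over 65.2% and 72.9% to 87.2% of the 133 members of height 15 to 19. It was 71.1%, 32 of 45, at heights of 20 to 29, where other summits reached 87.5%, and 3 of 3 above that.

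The motifs at isolated summits had 12 of 19 bases in common with the consensus in the median, against 13 at others, and a median p-value of 3.98e-07 against 2.00e-07. The bases of the core were near fixed in both groups: C at position 5 and G at position 10 of the motif, counted from 1 at its 5′ end, were present in 100% of the 503 motifs and in 99.7% and 99.8% of the others. The motifs of both groups were selected by their match to the same matrix, so such near fixed bases follow at least in part from the search. The largest differences were at positions 3, 12, 2, 15 and 7. G at position 3 stood in 42.9% (38.7 to 47.3) against 51.5%, G at position 2 in 40.4% (36.2 to 44.7) against 47.6%, G at position 12 in 62.6% (58.3 to 66.7) against 69.9% and C at position 15 in 76.7% (72.9 to 80.2) against 83.5%. C at position 7 went the other way, with 49.1% (44.8 to 53.5) against 42.7%. GC content over the motifs was 60.2% against 62.5%.

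Motifs that lay outside peaks were sparse around the isolated sites and carried few tags, as they were chosen to lie outside peaks. In the surroundings of a member, outside deposited peaks, a median of 17 motifs (16 to 18, range 4 to 62) was found, against 54 around other summits and 29 in the tiles. With overlapping windows counted as one, these were 12794 motifs, with 15527 CTCF tags and 10509 IgG tags within 150 bp, a scaled ratio of 1.41 (1.37 to 1.44), against 12.7 at the isolated summits. The motif at the summit was ranked by its match to the matrix against the motifs outside peaks in its 400 kb. It came first, ties included, at 176 of the 503 members with a motif, 34.99%. It was among the first 3 at 295, 58.6%. These ranks were not taken at other summits, so the shares have no comparison.

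The CTCF library was thinner around the isolated sites. Outside peaks, it had 2.42 tags per kb in the surroundings of members and 3.87 around other summits, whereas the IgG library had 3.15 and 3.33. In 4 equal groups of tiles by GC content, from low to high, the median was 2.27, 2.76, 3.32 and 3.93 tags per kb for CTCF and 3.05, 3.41, 3.54 and 3.23 for IgG, so that the CTCF background moved with GC content. The part of GC content in the values at the summits was not tested. Measured against the background of its own 400 kb, an isolated summit had a median of 18.7 times the CTCF tags (18.1 to 19.7), against 12.98 times (12.90 to 13.06) at other summits. The order of the groups thus turned with the reference: isolated summits had the lower ratio to IgG and the higher ratio to their own surroundings. The second reference is tied to the distance rule, since members have no other summit in their surroundings. The median CTCF background was 2.17 tags per kb in tiles without a summit, 2.44 in tiles with 1 and 2.97 over all tiles. How much of the higher ratio follows from the rule was not tested.

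Both ratios followed the distance to the nearest summit in steps. From under 5 kb over 5 to 20, 20 to 50, 50 to 100 and 100 to 200 kb to the isolated summits, the scaled CTCF to IgG ratio was 14.7, 14.5, 14.02, 13.5, 13.3 and 12.7. The intervals of neighbouring values in this order overlap, while those of the first (14.43 to 14.999) and the last (11.8 to 13.7) do not. The CTCF background was 4.10 tags per kb at the first of these steps and 2.42 at the last, and CTCF tags pooled over the own surroundings went from 13.1 to 19.9 times. The background is tied to the distances by which the summits were grouped. IgG tags over their own surroundings were 1.06 to 1.14 times at every step. The share with a motif was lowest at both ends, 69.2% under 5 kb and 70.2% at isolated summits, and 74.4% to 76.2% between.

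**Figure D4:**
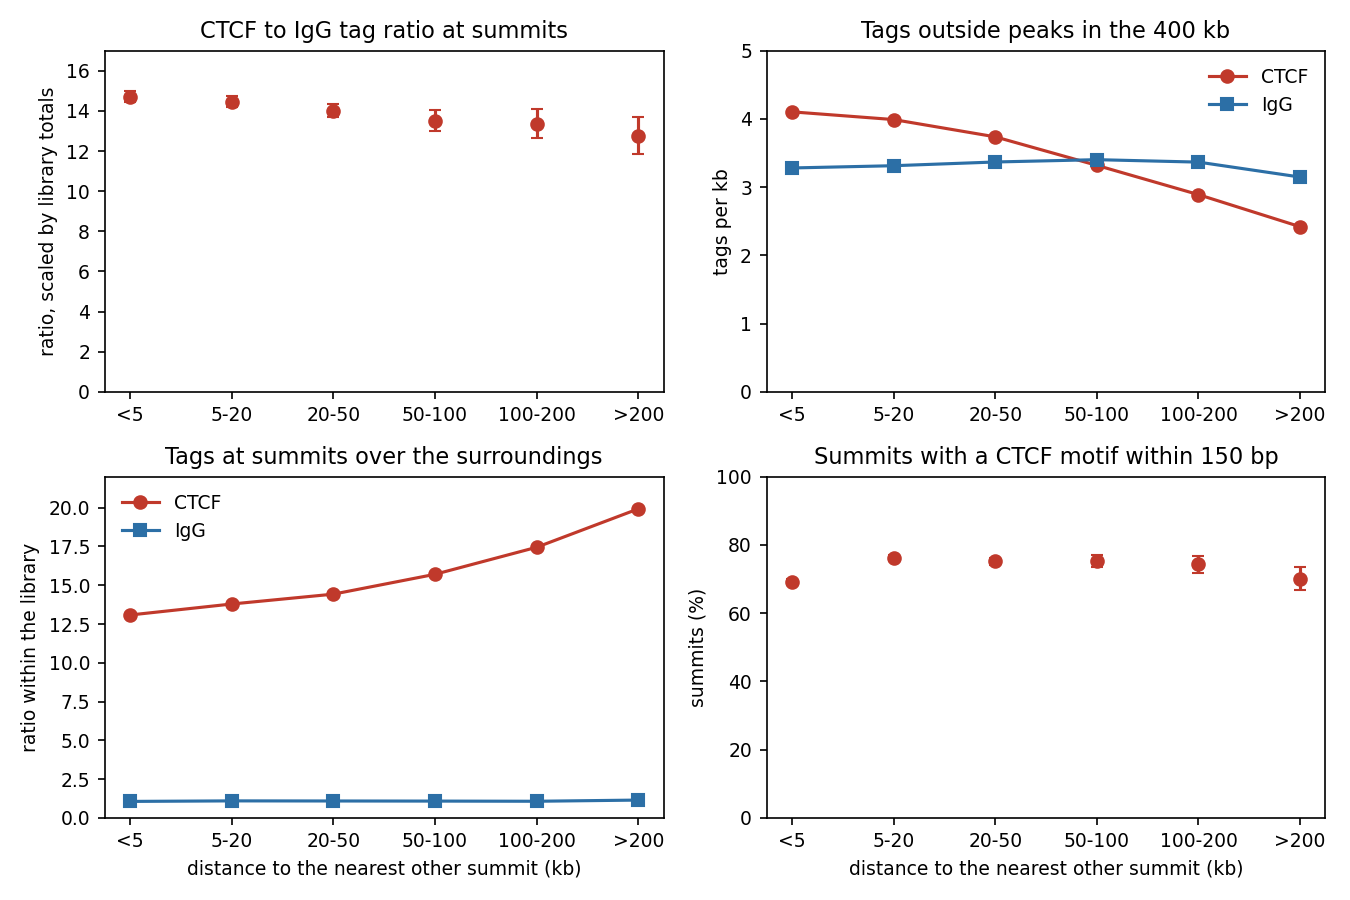
Summits grouped by the distance to the nearest other summit in kb (x axes); over 200 kb are the isolated ones. Top left, scaled ratio of CTCF to IgG tags within 150 bp with exact 95% intervals, from 14.7 down to 12.7. Top right, tags per kb outside peaks in the surrounding 400 kb for CTCF (red) and IgG (blue). Bottom left, tags at summits over the rate of the same library in the surroundings, which went from 13.1 to 19.9 for CTCF. Bottom right, percentage of summits with a motif, with Wilson 95% intervals.

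Heights were also compared at like GC content. In surroundings under 38%, 38 to 40%, 40 to 42%, 42 to 44% and at least 44% GC, there were 240, 251, 141, 54 and 31 isolated summits, with median heights of 11, 12, 12, 11.5 and 12. Other summits of the same bands had medians of 12, 12, 12, 13 and 13. The intervals of the medians overlapped or touched in each band. Mean heights were lower at isolated summits in all 5 bands, 11.95 against 12.41, 12.41 against 13.37, 13.11 against 13.83, 12.78 against 13.995 and 13 against 14.19, beside 12.45 against 14.03 over all summits. Tags over the own surroundings were still the higher ones at isolated summits in each band, from 19.1 against 17.6 in the lowest band to 15.1 against 11.96 in the highest. The bands do not remove the tie of this reference to the distance rule.

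The average profile had the same form in both groups. CTCF tags reached 72.0 per kb and summit close to the isolated summits and were 6.68 per kb at 800 to 1000 bp, against 79.8 and 9.16 at other summits. IgG tags reached 4.67 per kb near isolated summits and were 3.35 per kb at 800 to 1000 bp. The summit was placed by the authors where the same CTCF tags pile up, so the height of the CTCF profile describes how the position was chosen. The flanks and the IgG line do not depend on that placement. The difference between the CTCF flanks of the groups follows in part from the distance rule, however. A neighbouring peak can lie in or near the flank at other summits, but not at isolated ones. The size of that part was not tested.

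**Figure D5:**
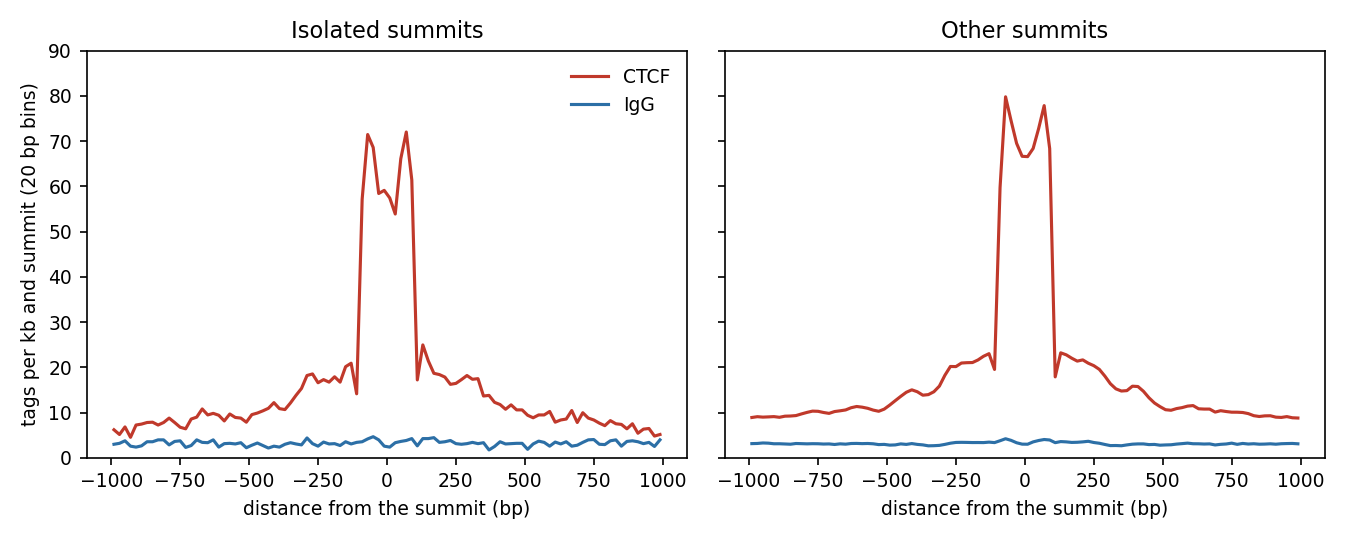
Tags per kb and summit in bins of 20 bp (y axis) by distance from the summit in bp (x axis), for CTCF (red) and IgG (blue), at isolated (left) and other summits (right). The CTCF line reaches 72.0 at isolated and 79.8 at other summits, and the IgG line stays below 5 in both.

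The summits next to the members that were not isolated themselves, 965 in all, had a median height of 12 and a motif in 74.1% (71.2 to 76.8), so both ends of the long gaps had like values. Of 605 neighbouring pairs with a motif at both summits and an isolated summit among them, the motifs pointed toward each other in 188, 31.1% (27.5 to 34.9), and away from each other in 113, 18.7% (15.8 to 21.98). At pairs over 200 kb apart without an isolated summit, 37.98% (34.6 to 41.5) pointed toward each other, and at pairs within 5 kb 18.99% (17.6 to 20.5) did. Between these, the share was 20.5% at 5 to 20 kb, 23.5% at 20 to 50 kb, 28.7% at 50 to 100 kb and 34.5% at 100 to 200 kb. Motifs pointed away from each other in 15.9% of the pairs over 200 kb apart without an isolated summit and in 26.3% of those within 5 kb. These pairs are neighbours on the linear map, and contacts between them were not measured.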

How the data were processed

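Chromatin of 1 R1/E ESC line was sequenced on a Genome Analyzer II in 1 CTCF-GFP and 1 IgG library. The authors deposited the aligned tags of each library, 1 line per tag with a count of 1 and no normalization, on mm9 (NCBIM37). The aligner is not given in the sources used here. They also deposited MACS 1.4 peaks with a score, whose lowest value of 50 stands for a p-value of 1e-05, and summits with a signal, the pileup height in tags.

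Each tag was shifted by 92 bp into its fragment (fragment length 185 bp, from the 1000 highest scoring peaks) and counted within 150 bp of summits. Motifs came from a matrix of 192 CTCF sequences of the study's motif sheet, of which only a part was held, with a pseudocount of 1 and exact thresholds. The sheet belongs to the study's supplement on binding sites of RAD21, a cohesin component, so the matrix was not drawn from all CTCF peaks. Genes were those of GENCODE M1. Tags outside peaks were counted per kb of known sequence. Counts were tested by an exact binomial test at the share given by the library totals, two-sided, with Benjamini-Hochberg adjustment, which compares 2 libraries. Shares carry Wilson intervals, ratios exact intervals and medians order-statistic intervals. The precision at one summit is set by its 6 to 54 CTCF tags, and depth was 8391191 CTCF and 7988889 IgG tags. The tools were numba 0.67.0, numpy 2.4.6, pandas 2.3.3, scipy 1.17.1, matplotlib 3.10.9 and Python 3.11.15. The test and the motif search were tested on simulated data.

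The isolated sites, the gene families and the measures were chosen with earlier results of these data known. Sites are named by rule: the 10 tallest, the 5 lowest, the 5 farthest from another summit, the member with the most IgG tags and the 3 on either side of the limit. Alternatives varied the limit, the score, the windows, the shift, the scaling, the motif p-value and the gene set. Scaling by the tags outside peaks of the surroundings, bands of GC content and copies of motifs were added after the data had been seen. Sex chromosomes were left out by the rule, and repeats, cohesin and expression were not analysed here.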

Additional observations from a re-analysis of the deposited data

How the results depend on the processing

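No paired analysis was possible because neither antibody has a second library. Under 45 alternatives to 9 values, 23 stayed within the interval of the value, or for a number within 1.5 times of it, and 22 moved. A limit of 150 kb gave 1152 isolated summits, with 39.2% GC and 1 gene start in the median, and one of 300 kb gave 334, with 38.1% GC. Only peaks with a score of at least 100, for members and neighbours alike, gave 864 isolated summits and moved the median height to 15, the ratio to 16.2, GC content to 39.7%, gene starts to 1 and the share with a motif to 77.2%. The CTCF to IgG ratio of 12.7 was 16.8 within 75 bp, 8.99 within 300 bp, 10.9 without moving tags, 14.2 when scaled by tags outside peaks and 17.4 when scaled by those of the surroundings. GC content over 500 kb on each side was 39.0%. Genes were 1 in the median when any overlap counted and 1 when all annotated genes did. The share with a motif was 82.7% at a p-value of 1e-04, 47.3% at 1e-06, 38.8% within 50 bp and 74.3% within 300 bp. In each of the 4 changes to the members, isolated summits had the lower median height (by 1 to 2 tags), GC content (by 5.44 to 6.79 percentage points) and number of gene starts (by 4 to 5). Without replicates, no value carries the variation between cultures. At 1 IgG tag per summit, the ratio of a single site is imprecise, as at the summit near Rnf152, where 30 and 3 tags gave 9.52 (2.96 to 48.8).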

Other observations

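Some motifs at isolated summits were copies of each other. The same 19 bases occurred only at that place among all matrix matches on chromosomes 1 to 19 for 350 of the 503 members with a motif, 69.6% (65.4 to 73.4), against 62.7% (62.1 to 63.3) at other summits. Motifs with 10 or more copies were found at 51 members, 10.1% (7.80 to 13.1), against 17.7% (17.2 to 18.2), and the share was 18.5% among summits with a neighbour within 5 kb, 14.6% at 50 to 100 kb and 12.9% at 100 to 200 kb. The motif shared by most members is shown here because it was the most frequent, a choice made after its count was seen.
shared motif: AGGCCAGAAGAGGGCATCA
It stood at 8 isolated summits of heights 9 to 19 and at 361 other summits, among 1364 occurrences on these chromosomes. Short interspersed repeats of the B2 kind are known to have carried CTCF motifs through rodent genomes, and the overlap with annotated repeats was not analysed here. Members whose motif had 10 or more copies had a median height of 10, against 12 for those with a single one, and other summits 12 against 14.

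Tall isolated sites without a motif were seen as well. Of the 48 members of height 20 or more, 35 held a motif and 13 did not, and 9 of these 13 held one at the looser p-value of 1e-04. The 13 had 22 to 30 CTCF tags and 0 to 2 IgG tags, so their tag counts were in the range of the tall sites with a motif. They include the summit in Lrrc4c with 25 CTCF tags and no IgG tag and the one in Macrod2 with 27 and 1. Another, with 22 and 0, is nearest to Bcl11a, which encodes a zinc finger repressor. The best match to the matrix at the site in Lrrc4c had a p-value of 1.26e-05, just above the limit of 1e-05. The sites in Macrod2 and near Bcl11a held no motif at 1e-04 either. All of these sites were named after their values had been seen.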
